A study of Mus musculus with 3 samples.

Results

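The mouse mitochondrial genome encodes 7 subunits of complex I of the respiratory chain, through the genes mt-Nd1, mt-Nd2, mt-Nd3, mt-Nd4, mt-Nd4l, mt-Nd5 and mt-Nd6. These 7 genes were taken by gene symbol from RNA sequencing tables that listed 38230 rows per library. All 7 were found once in each table, with the status OK in every library. The cells were LSK cells, the fraction of fetal liver without lineage markers and with Sca1 and c-Kit on the surface, in which blood stem and early progenitor cells lie. They were sorted from C57Bl/6 embryos at E14.5 that were wild type (WT), hemizygous for a DNMT3B7 transgene or homozygous for it, and the purpose was to compare expression between these genotypes. DNMT3B is an enzyme that methylates DNA, and DNMT3B7 is known as a shortened form of it, whose own activity was not tested here. Every genotype was represented by a single pool of 4 to 5 embryos and 1 library of total RNA. Differences therefore have no replicate check and are differences between libraries. What promoter drives the transgene is not given in the labels, and the genotypes were not checked on the transgene's own expression.

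Complex I takes electrons from NADH, hands them to ubiquinone and pumps protons across the inner mitochondrial membrane. Its membrane arm is built around the subunits made inside the mitochondrion, while all other subunits are encoded in the nucleus and imported. Mitochondrial DNA is read as long transcripts from both strands, which are cut at the tRNAs that lie between the mRNAs. Of the 7 genes, 6, called the heavy strand genes here, have their mRNA sequence on the same strand as nearly all other mitochondrial mRNAs, and mt-Nd6 is the only mRNA gene of the light strand. Adult blood stem cells are known for relying less on respiration than their dividing progeny do.

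The difference between the strands is visible in the sequences themselves. The first 60 bases of each coding sequence are given with the first codon in capitals, from the GENCODE mouse release M21 transcripts of GRCm38.
mt-Nd1: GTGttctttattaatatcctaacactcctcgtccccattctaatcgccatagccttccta
mt-Nd2: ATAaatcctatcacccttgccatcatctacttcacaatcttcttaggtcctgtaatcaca
mt-Nd3: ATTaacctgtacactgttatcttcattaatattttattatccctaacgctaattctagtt
mt-Nd4l: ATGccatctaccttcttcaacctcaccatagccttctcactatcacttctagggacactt
mt-Nd4: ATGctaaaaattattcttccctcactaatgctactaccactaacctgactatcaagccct
mt-Nd5: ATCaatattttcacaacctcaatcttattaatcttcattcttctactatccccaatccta
mt-Nd6: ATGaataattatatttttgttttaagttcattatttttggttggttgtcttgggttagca

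The mt-Nd6 sequence was rich in G and T, with 28.1% G and 5.97% C over its whole length. The 6 heavy strand genes were the reverse, with at most 11.6% G and at least 22.1% C. The first codons also differed, since mitochondria start translation at other codons besides ATG. Lengths ran from 297 bases for mt-Nd4l and 348 for mt-Nd3 through 519 for mt-Nd6, 957 for mt-Nd1, 1038 for mt-Nd2 and 1378 for mt-Nd4 to 1824 for mt-Nd5. The reading frame of mt-Nd4 ends 1 base past its last whole codon, and the poly(A) tail is known to complete its stop codon. None of the genes has an intron. No base positions are given, because the annotation used is of another build than the one named for the files.

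Some of the genes overlap, which bears on how fragments are counted. The mt-Nd4l and mt-Nd4 frames share 7 bases on the same strand and are known to be carried on 1 mRNA. The mt-Nd5 and mt-Nd6 genes share 14 bases on opposite strands. The ends concerned are shown with the shared bases in capitals.
mt-Nd4l, last 60 bases: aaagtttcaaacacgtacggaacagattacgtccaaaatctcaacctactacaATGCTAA
mt-Nd4, first 60 bases: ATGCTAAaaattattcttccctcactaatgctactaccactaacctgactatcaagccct
mt-Nd5, last 60 bases: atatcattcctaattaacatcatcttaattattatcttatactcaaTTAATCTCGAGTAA
mt-Nd6, last 60 bases: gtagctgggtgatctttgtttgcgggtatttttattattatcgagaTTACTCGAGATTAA

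Levels were read as FPKM, fragments per length and depth, all divided by 1 common factor so that the mean library sums to 1000000. The term value below means this rescaled FPKM, a level per length. The 7 mRNAs were among the most abundant that could be read in each library. The lowest of them in the WT library, mt-Nd5, had 0.857 times the value of Cfl1 (cofilin), the most abundant nuclear gene read, at 10044. The same ratio came to 0.926 with the hemizygous transgene and 0.559 with the homozygous one. Where 3 values follow each other below, they are those of the WT, hemizygous and homozygous libraries, in that order.

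mt-Nd1, the subunit at the junction of the membrane and matrix arms where ubiquinone binds, had values of 30552, 25548 and 17649. mt-Nd3, a small subunit whose loop lies at the same junction, had values of 32072, 22984 and 17153. Both genes were highest in the WT and lowest in the homozygous library, and mt-Nd3 showed the wider gap between the WT and hemizygous libraries. mt-Nd4l, another small subunit of the membrane arm, had values of 29640, 26974 and 18210.

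The subunits of the membrane arm that resemble antiporters and pump protons are encoded by mt-Nd2, mt-Nd4 and mt-Nd5. mt-Nd2 had values of 14391, 12389.9 and 8236. mt-Nd4 had values of 20999.7, 18910.3 and 12056. mt-Nd5, the outermost of these subunits, had values of 8608, 8239 and 5335. All 3 followed the order WT, hemizygous, homozygous, and for mt-Nd5 the WT and hemizygous libraries lay closest together. mt-Nd6, the light strand gene, whose protein takes part in coupling electron transfer to pumping, had values of 13993, 11999 and 8099.

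**Figure D1:**
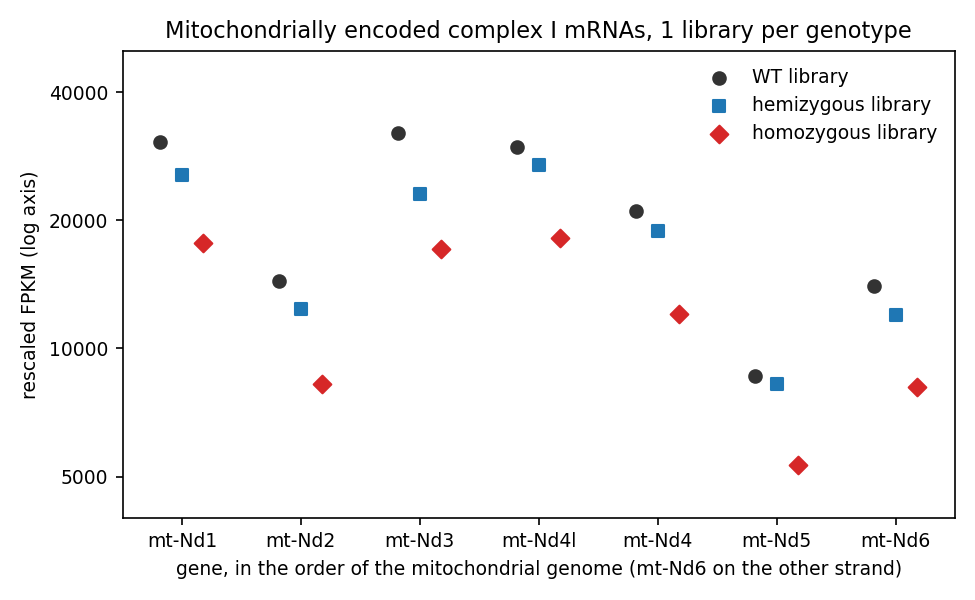
Rescaled FPKM on a log axis for the 7 mitochondrially encoded complex I genes, in genome order, with 1 point per library. The homozygous library is the lowest for every gene, from 5335 for mt-Nd5 to 18210 for mt-Nd4l, and the WT library is the highest for every gene.

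The order of the genes was nearly the same in the 3 libraries. By value, the hemizygous and homozygous libraries ran mt-Nd4l, mt-Nd1, mt-Nd3, mt-Nd4, mt-Nd2, mt-Nd6 and mt-Nd5 from high to low. In the WT library mt-Nd3 stood first, followed by mt-Nd1 and mt-Nd4l, and the other 4 genes kept their places. The highest gene exceeded the lowest by 3.73-fold, 3.27-fold and 3.41-fold. With no replicate library, neighbours could be set only against counting error. mt-Nd2 and mt-Nd6 lay together, 0.04 apart on the log2 scale for WT and 0.05 for hemizygous, and in the homozygous library the counting interval of their difference, -0.01 to 0.06, included 0. The other neighbours differed by more than counting error in each library, the closest being mt-Nd1 and mt-Nd3 in the homozygous library, 0.04 apart (95% counting interval 0.01 to 0.07).

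The order depended on how length is corrected for. Fragments shorter than 49 bases were not counted. A gene was therefore given as many start positions as its length allows for a fragment of that size. Fragments per start position divide the estimated fragments by that number. The estimate itself uses the assumed distribution of fragment lengths, so this scale is not free of it. On that scale mt-Nd1 was first and mt-Nd4 second in every library, at 103.7 and 76.0 fragments per start position in the WT library, while mt-Nd4l fell back to 47.4. mt-Nd5 was still the lowest at 32.2. The pair on 1 mRNA changed order between the scales. By value mt-Nd4l was 1.41, 1.43 and 1.51 times mt-Nd4. By fragments per start position it was 0.623, 0.630 and 0.667 times mt-Nd4. Levels of mt-Nd4l and mt-Nd3, the shortest genes, are therefore uncertain beside those of the longer genes. Their ratios between libraries are free of the length only if fragment lengths were alike in the 3 libraries, which was not tested.

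In the homozygous library all 7 complex I mRNAs were lower than in the WT library, with a median log2 ratio of -0.79, a level 42.2% lower. The log2 ratio of value + 1 was taken between libraries, and a gene was called when it differed by at least 1.5-fold. All 7 were called as lower, against 7.26% of the 951 genes compared, and 0 as higher, against 5.26%. At 2-fold 0 of 7 were called as lower, against 2.31%. In all, 1449 genes could be read, 1436 of them nuclear, and those reaching a value of 1 in either library were compared. In each comparison these genes include the 7 themselves and the 6 other mitochondrial mRNAs, which were all called as lower here too. The 7 mRNAs are cut from shared long transcripts, so they are not 7 separate observations to set against such a share. The median over all genes compared was -0.04.

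The 7 ratios lay close together. mt-Nd3 had the lowest, -0.90 ± 0.02 (counting standard error, SE, from the estimated fragments), and mt-Nd5 the highest, -0.69 ± 0.01. Between them stood mt-Nd2 at -0.81, mt-Nd4 at -0.80, mt-Nd1 at -0.79, mt-Nd6 at -0.79 and mt-Nd4l at -0.70. The light strand gene mt-Nd6 lay 0.0028 above the median of the 7. The counting errors cover the sampling of fragments only, and neither embryos nor library making.

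Nuclear genes read in the same libraries did not share this displacement. Their median log2 ratio for homozygous versus WT was -0.04 over 938 genes, and 95% of them lay between -0.94 and 0.91. As low as the highest of the 7, or lower, were 45 of them, or 4.80%. Low values widen that spread, so the abundant nuclear genes are the nearer standard. Of 36 with a mean value of at least 1000, a limit chosen after the values were seen, 0 were as low as the highest of the 7 mRNAs, and they ranged from -0.36 to 0.30. In pooled cells, fewer cells rich in mitochondrial RNA and less of that RNA per cell cannot be told apart.

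**Figure D2:**
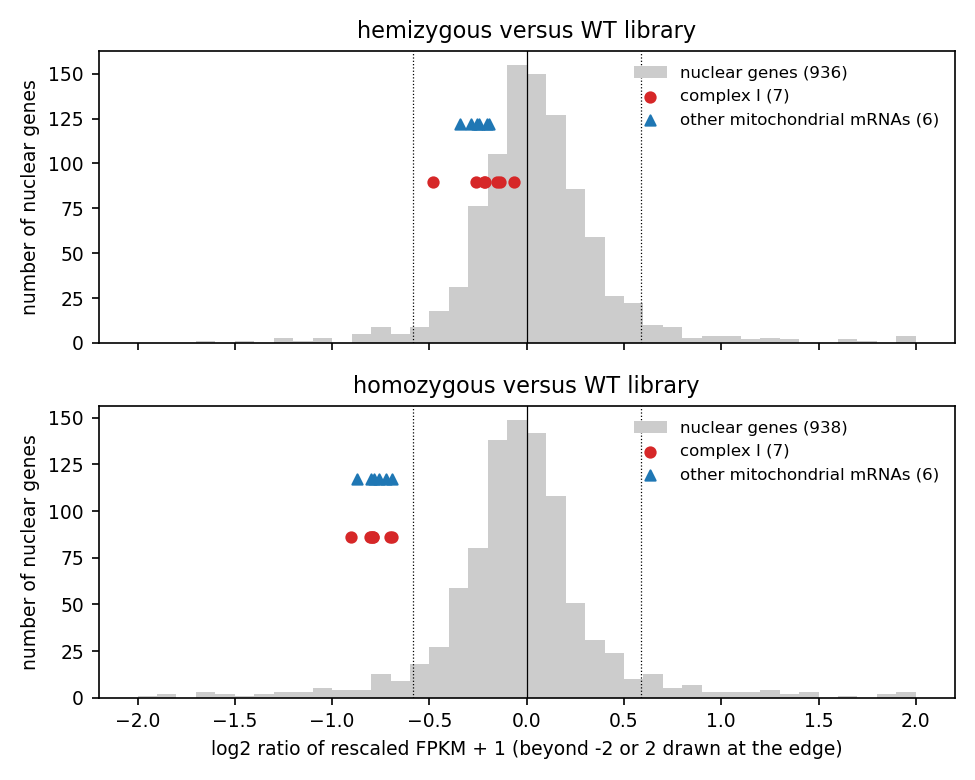
Histograms of the log2 ratio of rescaled FPKM + 1 for nuclear genes (grey) in the hemizygous versus WT (936 genes) and homozygous versus WT comparison (938 genes), with the 7 complex I genes as circles and the 6 other mitochondrial mRNAs as triangles at arbitrary heights. Dotted lines mark 1.5-fold. In the lower panel the circles lie between -0.90 and -0.69, left of the dotted line, and the triangles between -0.87 and -0.69.

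The size of the difference rests on the scaling between libraries. Scaling the libraries to equal sums of FPKM raised every ratio for homozygous versus WT by 0.42. The median of the 7 was then -0.37 and 0 of 7 were called, while the genes compared split into 24 lower and 180 higher, against 69 lower and 50 higher with the deposited scaling. The mitochondrial mRNAs are themselves a large part of that sum. Relative to the median nuclear gene, a difference that scaling leaves alone but for the pseudocount, the median of the 7 was -0.75.

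In the hemizygous library the 7 mRNAs were lower than in the WT library by less, with a median log2 ratio of -0.22, a level 13.9% lower. Of the 7, 0 were called as lower, against 3.06% of the 949 genes compared, and 0 as higher, against 4.95%. At 2-fold 0 of 7 were lower, against 0.948%. mt-Nd3 was farthest from WT, at -0.48 ± 0.02 (counting SE), and mt-Nd5 nearest, at -0.06 ± 0.01. mt-Nd1 was at -0.26, mt-Nd6 at -0.22, mt-Nd2 at -0.22, mt-Nd4 at -0.15 and mt-Nd4l at -0.14. Under sum scaling mt-Nd4 (0.0041), mt-Nd4l (0.02) and mt-Nd5 (0.09) turned to the other side of 0. The nuclear genes had a median of 0.03 and the median of the 7 lay -0.25 from it. The 36 abundant nuclear genes ranged from -0.35 to 0.33, with a median of -0.09. Of them, 21 were as low as mt-Nd5 or lower and 10 as low as the median of the 7 or lower, while mt-Nd3 lay below all 36.

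Between the transgenic libraries the 7 mRNAs were lower in the homozygous one, with a median log2 ratio of -0.57, a level 32.5% lower. mt-Nd4 (-0.65), mt-Nd5 (-0.63) and mt-Nd2 (-0.59) were called as lower, 3 of 7 against 7.52% of the 957 genes compared, and 0 as higher, against 3.87%. At 2-fold 0 of 7 were lower, against 2.93%. The ratios of mt-Nd6 (-0.57), mt-Nd4l (-0.57), mt-Nd1 (-0.53) and mt-Nd3 (-0.42) fell short of 1.5-fold. With median-ratio scaling, 1 of 7 passed, and with sum scaling 0. The 944 nuclear genes had a median of -0.05, and 113 of them, or 11.97%, were as low as mt-Nd3 or lower. The 36 abundant nuclear genes ranged from -0.48 to 0.22. Of them, 2 were as low as mt-Nd3 or lower and 0 as low as the median of the 7. The comparisons with WT share the WT library, and this one shares both transgenic libraries with them, so their ratios are not independent.

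**Figure D3:**
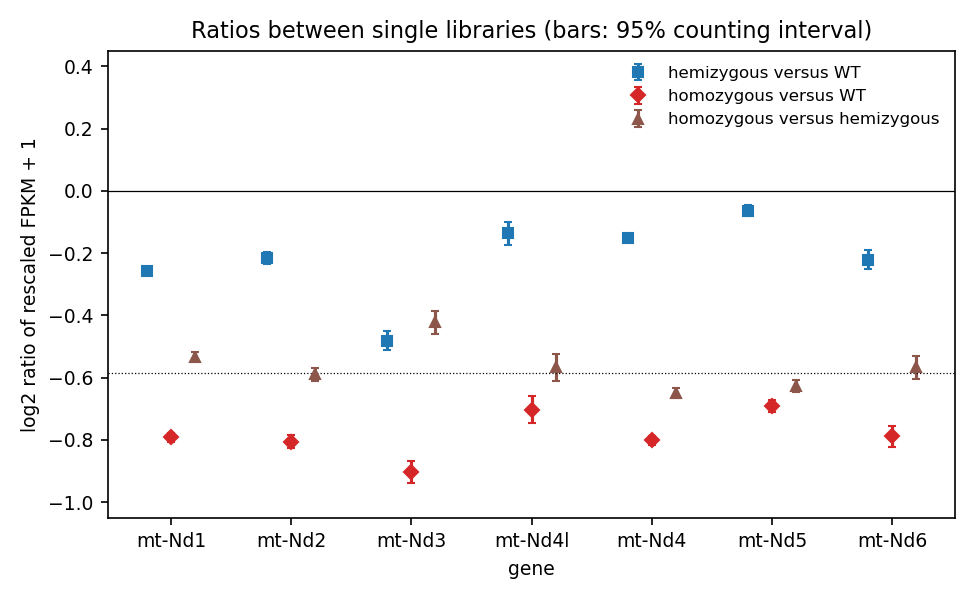
Log2 ratios of rescaled FPKM + 1 for the 7 genes in the 3 comparisons, with 95% counting intervals as bars and 1.5-fold as the dotted line. Squares (hemizygous versus WT) run from -0.48 for mt-Nd3 to -0.06 for mt-Nd5, and diamonds (homozygous versus WT) from -0.90 to -0.69 for the same genes.

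The genes did not keep exactly the same proportions to each other. In the hemizygous versus WT comparison mt-Nd3 lay -0.26 from the median of the 7 and mt-Nd5 0.15 above it, several times their counting errors. In the homozygous versus WT comparison the same genes lay at -0.11 and 0.10. As shares of the fragments on the 7 genes, mt-Nd3 took 5.43% (95% Wilson interval 5.35 to 5.50), 4.45% (4.37 to 4.52) and 4.99% (4.89 to 5.09). mt-Nd5 took 16.3% (16.2 to 16.4), 17.8% (17.70 to 17.97) and 17.4% (17.2 to 17.5). mt-Nd4, the largest contributor, took 28.8%, 29.7% and 28.4%, and mt-Nd1 took 26.9%, 25.7% and 26.7%. These proportions do not depend on the scaling between libraries, and whether they differ beyond the spread between pools cannot be tested with 1 library each. For short genes such as mt-Nd3, fragment lengths that differ between libraries could also shift them, which was not tested.

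Copies of mitochondrial DNA in the nuclear genome can share reads with some of these genes. Of the 50-base stretches of mt-Nd3, 97.99% also occur in the pseudogene Gm28438, of mt-Nd4l 98.8% in Gm10222 and of mt-Nd4 62.2% in Gm28439, all on chromosome 1. The share was 8.19% for mt-Nd2, 7.61% for mt-Nd5 and 0% for mt-Nd1 and mt-Nd6. Gm10222 was listed at 0 in all 3 libraries, and Gm28438 and Gm28439 were not listed. Chromosome 1 was not among the chromosomes read, so the 0 for Gm10222 does not tell whether reads were shared. How reads with several matches were assigned is not stated in the labels. Only annotated genes were searched, so copies elsewhere in the nuclear genome are not covered. The genes without such stretches, mt-Nd1 and mt-Nd6, stood at -0.79 each on the log2 scale, homozygous versus WT. The part of shared reads in the ratios between libraries was not tested.

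The light strand gene was set beside the heavy strand genes within each library. mt-Nd6 stood below the median of the 6 heavy strand genes, with log2 ratios of values of -0.86, -0.80 and -0.85. By fragments per start position the ratios were nearer to 0, at -0.56, -0.43 and -0.51. Set against mt-Nd5, its neighbour on the opposite strand, mt-Nd6 was higher by value, 1.63-fold, 1.46-fold and 1.52-fold. By fragments per start position it was 1.19-fold, 1.07-fold and 1.11-fold. The ratio of mt-Nd6 to the heavy strand genes thus differed less between the libraries than between the length corrections.

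Whether fragments at mt-Nd6 came from its own mRNA could not be read from these tables. The strand setting of the counting is not stated in the labels, and the mt-Nd5 mRNA is known to run on past its frame through the sequence opposite mt-Nd6, so reads of the strands cannot be told apart without it. The tRNA genes, at 59 to 75 bases, are longer than the shortest fragment counted but shorter than most of the fragment lengths assumed. They were set out by the strand of their annotation. The 14 of the heavy strand held a median of 7.49 fragments in the WT library, at most 62.9. The 8 of the light strand held a median of 146. Among them mt-Ts1 held 3074, mt-Te, the neighbour of mt-Nd6, 492, mt-Tc 302, mt-Tn 165, mt-Ty 128 and the other 3 between 14.0 and 19.0. mt-Te held 492, 437 and 269 fragments in the 3 libraries. Per start position that is 23.4, 20.8 and 12.8, beside 38.3, 34.8 and 21.2 for mt-Nd6 and 32.2, 32.6 and 19.04 for mt-Nd5. From which strand these fragments came was not tested.

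**Figure D4:**
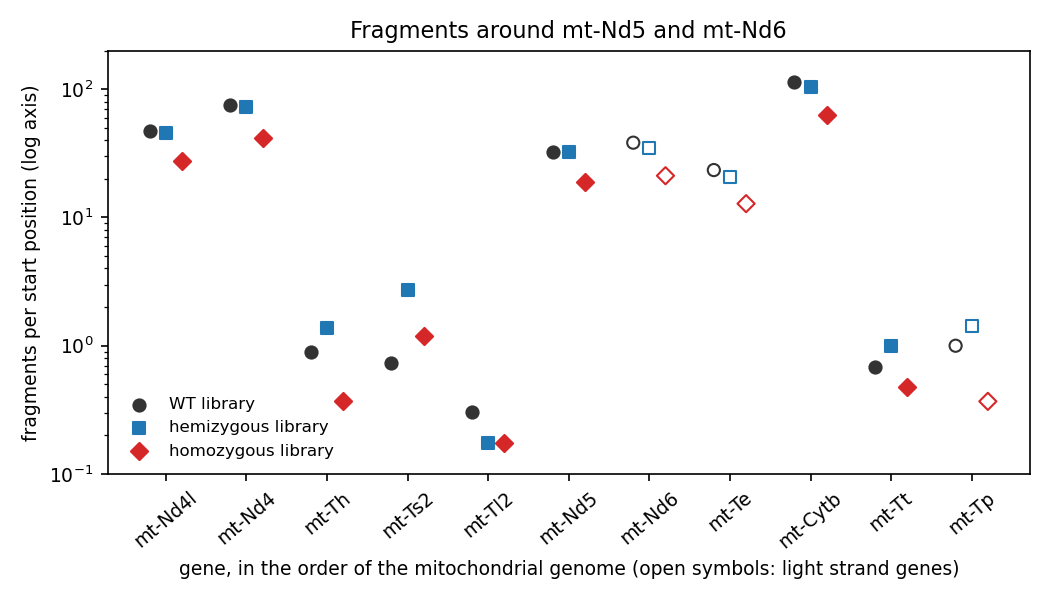
Estimated fragments per start position, on a log axis, for genes from mt-Nd4l to mt-Tp in genome order, with open symbols for light strand genes and 1 point per library. In the WT library mt-Nd5 (32.2), mt-Nd6 (38.3) and mt-Te (23.4) stand within a narrow range, far above mt-Tp (0.999).

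Beside the other mitochondrial mRNAs, the complex I mRNAs were the less abundant set. The 6 genes of complexes III, IV and V all had higher values than any of the 7 in each of the 3 libraries. The gap was narrow in each, and narrowest in the WT library, with mt-Cytb of complex III at 32253 and mt-Nd3 at 32072. In the hemizygous and homozygous libraries mt-Cytb was at 28007 and 18719, beside mt-Nd4l at 26974 and 18210. The levels of mt-Nd3 and mt-Nd4l are uncertain beside those of longer genes, as given above. The 7 complex I genes held 27.5% (95% Wilson interval 27.4 to 27.6), 28.2% (28.1 to 28.3) and 27.6% (27.5 to 27.7) of the fragments on the 13 mitochondrial mRNAs. The WT and homozygous shares thus overlap in counting error, and the hemizygous share was higher by less than 1 percentage point. For homozygous versus WT the 6 other mRNAs had a median log2 ratio of -0.77, between -0.87 and -0.69, which covers nearly the range of the 7. The median of the 7 less that of the other 6 was -0.02 for homozygous versus WT, 0.03 for hemizygous versus WT and -0.04 for homozygous versus hemizygous. The rRNA genes mt-Rnr1 and mt-Rnr2 had values of 2170 and 1616.5 in the WT library, below every complex I mRNA, and differed by -0.65 and -0.78 on the log2 scale, homozygous versus WT. Whether rRNA was removed when the libraries were made or counted was not tested, so these values are not read as levels in the cells.

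The nuclear side of complex I was covered thinly, since nuclear genes could be read only on parts of 10 chromosomes. Chromosome 16, read over nearly its whole length, gave 826 of the 1436 nuclear genes. Of 36 nuclear subunit genes listed for the purpose, 3 could be read, and 0 of the 3 passed 1.5-fold in any comparison in either direction. Of the other 33, 15 were listed at 0 in all 3 libraries and 21, these included, below a value of 1. None of the 33 was used, whatever its value, and the highest of them was Ndufs7 at 249, 310 and 272. Ndufv1, which carries the flavin that accepts electrons from NADH, had values of 1163, 1089 and 1112.5. Ndufs8, which holds iron-sulphur clusters on the path to ubiquinone, had values of 679.7, 659 and 727. Ndufb4, an accessory subunit of the membrane arm, was at 218, 207 and 197. The log2 ratios for homozygous versus WT were -0.06 ± 0.04 (counting SE) for Ndufv1, 0.10 ± 0.04 for Ndufs8 and -0.15 ± 0.08 for Ndufb4. These nuclear subunit genes thus lay near the nuclear median, while the smallest difference among the mitochondrially encoded subunits was -0.69.

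Assembly factors and the machinery of mitochondrial RNA were read for a few genes. Of 19 assembly factors, 2 could be read: Timmdc1, which helps to build the membrane arm, with values of 64.8, 60.98 and 65.7, and Tmem186, another assembly factor, with 139.6, 134 and 123. Of 42 symbols listed for mitochondrial RNA synthesis and processing, 34 genes were found in the tables and 5 could be read. Trmt10c, a subunit of the enzyme that cuts the tRNA ends out of the long transcripts, was at 97.4, 92.8 and 104. Tfb1m, an rRNA methyltransferase of mitochondria, was at 103.7, 99.9 and 100.8. Mtpap, the mitochondrial poly(A) polymerase, was at 133.5, 131 and 135. Mterf1a and Mterf1b, similar copies of a termination factor between which reads may be split, were at 39.1, 33.1 and 36.6 and at 31.3, 28.6 and 28.8. None of these 7 passed 1.5-fold in any comparison, and their log2 ratios for homozygous versus WT lay between -0.19 and 0.10.

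The nuclear genes whose pattern over the 3 libraries was nearest to that of the heavy strand genes were taken by the Euclidean distance between their log2 ratios to WT and the medians of the 6, -0.18 for hemizygous and -0.80 for homozygous, among 606 genes whose value reached 20 in each library. Pygm, the muscle glycogen phosphorylase, was nearest, with values of 77.5, 60.7 and 46.9 and a distance of 0.18. Rps6kb2, a ribosomal S6 kinase, followed with 353, 304 and 233 and a distance of 0.20. Rogdi (0.26), the antisense gene Gm15879 (0.26) and Pold4 (0.29), a subunit of DNA polymerase delta, were next. All 5 were chosen for this pattern, over 3 libraries that share WT as their reference.

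Markers of cell types could be read for few genes. Of the LSK gate markers, 0 of 6 lay in the readable parts of the table, so the labelled cell type was not checked on Kit, Ly6a, Cd34 or Ptprc. Of 9 vessel and stroma markers, 2 could be read, Col4a1 and Col4a2, with summed values of 51.9, 67.1 and 97.9, the reverse order of the mitochondrial mRNAs. Both passed 1.5-fold as higher for homozygous versus WT, at log2 ratios of 0.80 and 0.97. Of 11 erythroid markers, 2 could be read, Tfrc and Cpox, with sums of 1698, 1830 and 1402. Tfrc was lower in the homozygous library, at log2 ratios of -0.34 ± 0.04 (counting SE) against WT and -0.48 ± 0.04 against hemizygous. Cpox was at -0.11 ± 0.06 in both. Neither passed 1.5-fold. The 1 of 8 hepatocyte markers read, Ahsg, was at 3.65, 3.45 and 3.61. For macrophages and granulocytes 10 symbols stood for 9 genes in the tables, and the 1 read, Mmp8, was at 3.36, 3.58 and 1.59. Mmp8 passed 1.5-fold as lower in the homozygous library, at log2 ratios of -0.75 ± 0.47 (counting SE) against WT and -0.83 ± 0.46 against hemizygous. The part of these cell types in the mitochondrial differences was not tested. Estimated fragments on listed genes came to 2971560, 2973150 and 2284680, near equal in the WT and hemizygous libraries and fewer in the homozygous one. The 13 mitochondrial mRNAs held 1275840, 1151230 and 706324 of them, and the 7 genes 350551, 324354 and 194633.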

How the data were processed

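RNA sequencing of 3 pooled libraries was used. Values were deposited as FPKM per gene, with a status, per the file headers. The submitters' processing notes name Cufflinks, TopHat2, Bowtie2 and mm9 and no versions. Annotation, strand setting and fragment length are not stated there.

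Of 38185 gene identifiers with 1 row, 95.4% were found in GENCODE M21 (GRCm38), used for lengths, strands and gene order. FPKM was divided by 4305 in every library. Nuclear genes were read only where high values ran from the start of a chromosome. On each, 1 break was fitted by maximum likelihood to the order of protein-coding genes at or above a mean FPKM of 200000, without listed genes and large receptor, keratin and defensin families. It was kept when the log likelihood rose by at least 5 and at least 25% were high before it. This left 10 chromosomes. The 25% condition was added after the first fit had kept 12, 2 of them with few high genes before the break.

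Low FPKM times effective length came in whole steps (within 0.05 for 69.95%, 67.3% and 69.6% of low values in the WT, hemizygous and homozygous libraries). The effective length assumed fragments of mean 200 and SD 80, and a shortest fragment of 49 bases, chosen from 30 to 60 because it made all tRNA values under 30 fragments whole within 0.1 (15 of 15, 15 of 15 and 14 of 14). One step was taken as 1 fragment. By this the authors' FPKM had been divided by 952, 1007 and 909 fragments, a normalization and not the depth. Intervals (95%, Wilson for shares) cover counting error only, and reads without molecular identifiers are not independent molecules.

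The pseudocount was 1, the minimum value 1 and the call 1.5-fold. With 1 library per group no test was possible. All 7 genes are named. Other genes are named by list, or as the 5 nearest in pattern. List genes were matched by symbol or, where the tables use another symbol, by gene identifier through the annotation. Members and lists were chosen with earlier results of these data known. Scripts (Python 3.11.15, numpy 2.4.6, pandas 2.3.3, scipy 1.17.1) were tested on simulated data for the fragment step, the break and fold changes. The assumed fragment lengths and the choice of shortest fragment were not tested that way. Alternatives covered pseudocount, scaling, minimum, fragment length and short genes. Protein sequences were not used here.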

Additional observations from a re-analysis of the deposited data

How the results depend on the processing

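Median log2 ratios of the 7 genes stayed below 0 in all 3 comparisons under every pseudocount, minimum and scaling run. For homozygous versus WT the median was -0.76 with median-ratio scaling, -0.77 with median-ratio scaling on chromosome 16 alone (added after seeing the data), -0.72 with nuclear sum scaling and -0.37 with sum scaling, where 0 of 7 passed 1.5-fold in place of 7. For hemizygous versus WT it was -0.24 with the chromosome 16 scaling, -0.17 with nuclear sum scaling and -0.061 with sum scaling, where mt-Nd4 (0.0041), mt-Nd4l (0.019) and mt-Nd5 (0.092) reversed. For homozygous versus hemizygous it was -0.52 with both median-ratio scalings, which left 1 of 7 past 1.5-fold in place of 3, and -0.30 with sum scaling, which left 0. The log2 ratio of mt-Nd6 to the heavy strand genes in the WT, hemizygous and homozygous libraries was -0.34, -0.38 and -0.32 without mt-Nd4l and mt-Nd3, -0.55, -0.42 and -0.48 by fragments per full length, and -0.56, -0.43 and -0.51 by fragments per start position (added after seeing the data). The share of the 7 genes was 27.4%, 28.1% and 27.4% with fragments of 150 bases, and 26.1%, 27.0% and 26.3% without mt-Atp8, mt-Nd4l and mt-Nd3. Genes compared past 1.5-fold numbered 76, 119 and 109 (hemizygous versus WT, homozygous versus WT, homozygous versus hemizygous), against 17, 39 and 27 with a pseudocount of 10, 2339, 1980 and 2418 over every row of the table, and 117, 161 and 166 with 12 chromosomes read (2089 nuclear genes, added after seeing the data). Sum scaling gave 19, 24 and 46 lower genes in place of 29, 69 and 72, and 79, 180 and 73 higher in place of 47, 50 and 37. No paired analysis was possible because each group is 1 library, which also kept any replicate from being left out. The cause of these changes was not tested. The mitochondrial mRNAs are part of the sum used in sum scaling.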
